A study of Mus musculus with 4 samples.

Results

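The genes described are 8 genes of mitochondrial calcium uptake and of the voltage-dependent anion channel (VDAC): *Mcu*, *Micu2*, *Smdt1*, *Letm1*, *Slc8b1*, *Vdac1*, *Vdac2* and *Vdac3*. They were taken from the deposited table by an exact match of the gene symbol, which gave 1 row for each symbol and 8 of 55401 rows in all. The table holds heart RNA from 4 mice at 8 weeks of age, namely 2 wild-type mice and 2 *Ctcf* heterozygous mice with 1 library per mouse. The heterozygous mice carry CTCF-R567W, an arginine-to-tryptophan substitution made by CRISPR/Cas9 editing, on one *Ctcf* allele, so every cell of the animal carries it and no Cre or transgene is involved. The wild-type mice carry no edited allele, all mice are of the C57BL/6N strain, and no agent is named for either group. The sex of the mice and the number of founder lines are not given in the sources used here.

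Calcium enters mitochondria across both membranes. Ions first cross the outer membrane through VDAC pores, which also carry ATP, ADP and other metabolites, and then cross the inner membrane through the uniporter. *Mcu* encodes the uniporter pore, *Smdt1* encodes EMRE, which the pore needs in order to conduct, and *Micu2* encodes a calcium-sensing gatekeeper. Calcium leaves the matrix mainly through NCLX, the sodium-calcium exchanger encoded by *Slc8b1*, while *Letm1* encodes an inner-membrane protein of cation-proton exchange and mitochondrial volume control. In heart muscle the calcium that enters the matrix stimulates dehydrogenases that feed the respiratory chain.

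All values are TPM (the share of a transcript in the library's total, on a fixed scale), relative abundances corrected for transcript length. Levels can thus be compared roughly between genes, but effects of base composition and isoforms were not examined. Numbers of transcripts per transcript below are ratios of TPM and not counts of molecules. TPM keep no read depth, so the counting error of a value is unknown and no interval for it is given. Mitochondrially encoded genes and 11 near-identical nuclear copies of them together held between 76.0% and 78.8% of the TPM in wild-type hearts and between 82.4% and 85.8% in heterozygous hearts, and all other genes held between 21.2% and 24.0% and between 14.2% and 17.6%. The 8 members together held between 0.0163% and 0.0341%. Each library was therefore divided by a median-of-ratios factor, and the result is called scaled TPM below. Of the cell type markers checked, those of cardiomyocytes were present in every library (8 of 8 markers, summed scaled TPM 24840 and 23379 in wild-type and 20048 and 23978 in heterozygous hearts). Their median log2 fold change was -0.28. Of the 8, 4 stood lower in both heterozygous hearts than in both wild-type hearts, compared with 23.3% of all genes. The 5 atrial markers summed to 805 scaled TPM in wild-type heart 1 and to between 1918 and 3285 in the other hearts. *Bmp10* was at 0 in 1 library, and the median log2 fold change of the atrial markers was 0.92. The 5 erythroid markers summed to 2121 in heterozygous heart 2 and to between 928 and 987 elsewhere, with a median log2 fold change of 0.53. Markers of endothelial cells, fibroblasts, smooth muscle and macrophages were detected with median log2 fold changes between -0.19 and -0.03. The part that these differences have in the results below was not tested, and in bulk tissue fewer cells of a type and less RNA per cell cannot be told apart. *Ctcf* itself overlapped between genotypes (scaled TPM of 6.12 and 6.02 in the wild-type, compared with 7.51 and 5.76 in heterozygous hearts).

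The members lie on 6 chromosomes and are all protein-coding. In mm10 coordinates of the GENCODE annotation, *Mcu* spans chromosome 10, 59446984 to 59616692, *Micu2* chromosome 14, 57916261 to 57999262, and *Smdt1* chromosome 15, 82338959 to 82349091. *Letm1* (33739673 to 33782817) and *Slc8b1* (120511168 to 120534024) both lie on chromosome 5. *Vdac1* spans chromosome 11, 52360860 to 52389397, *Vdac2* chromosome 14, 21825238 to 21845879, and *Vdac3* chromosome 8, 22577075 to 22593813. The 3 VDAC coding sequences were between 67.5% and 72.7% identical to each other, and the longest stretch that any 2 of them shared without a mismatch was 17 bases. Pseudogenes were closer: *Vdac3-ps1* was 99.5% identical to *Vdac3* over 853 bases but had at most 0.82 TPM, *Gm7591* was listed at 0 in all libraries, and *Gm7832*, a copy of *Vdac2*, had at most 0.14 TPM. *Smdt1* shared 245 of its 1479 annotated exon bases with *Pheta2*, which had at most 0.10 TPM.

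RefSeq promoter sequences (GRCm38.p6, the assembly behind mm10) were found for 5 of the 8 members, with 2 start sites for *Vdac1*. The 250 bases before these start sites held between 14 and 23 CpG dinucleotides, compared with a median of 6 over 32851 mouse promoters, of which 29.4% held 14 or more. The sequences of *Vdac1*, one of the members with lower values in heterozygous hearts, and of *Mcu*, whose scaled value differed little, are shown because both are of this CpG-rich kind. They are written 5′ to 3′ on the strand of the gene, with each CpG in capitals, for *Vdac1* at chr11:52360601-52360850 (plus strand) and for *Mcu* at chr10:59616693-59616942 (minus strand).
Vdac1: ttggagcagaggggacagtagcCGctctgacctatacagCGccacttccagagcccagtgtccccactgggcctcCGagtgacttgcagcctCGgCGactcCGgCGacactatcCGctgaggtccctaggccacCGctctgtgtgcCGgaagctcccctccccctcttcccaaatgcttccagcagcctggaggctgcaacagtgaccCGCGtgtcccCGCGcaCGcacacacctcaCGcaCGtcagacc
Mcu: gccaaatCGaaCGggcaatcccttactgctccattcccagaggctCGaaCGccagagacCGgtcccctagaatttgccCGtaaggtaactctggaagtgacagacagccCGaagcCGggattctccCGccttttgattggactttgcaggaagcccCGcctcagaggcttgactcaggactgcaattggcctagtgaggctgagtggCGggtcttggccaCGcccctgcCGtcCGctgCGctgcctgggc
The windows were searched on both strands for AGGNGGC, a short form of the CTCF core motif, which was found in 8214 of the 32851 promoters. It was present in 1 of the 6 windows, that of *Smdt1*, at position 239 of 250. The letters TCAAGGTCA (oestrogen-related receptor, 0.39% of promoters), GCATGCGC (NRF1, 2.26%) and AAGATGGC (YY1, 1.56%) were in none of the 6. A match is a stretch of letters and not a bound site.

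Within each heart the members kept the same order of levels. *Smdt1* was the most abundant, followed by *Vdac3*, *Vdac2*, *Vdac1*, *Micu2*, *Letm1*, *Slc8b1* and *Mcu*, and each stood above the next in 4 of 4 libraries. Between hearts of one genotype, the TPM ranges of *Smdt1* and *Vdac3* and of *Vdac3* and *Vdac2* overlapped in both genotypes, so that only the order within a heart separated these neighbours. The ranges of *Slc8b1* and *Mcu* overlapped in wild-type hearts and those of *Letm1* and *Slc8b1* in heterozygous hearts. The mRNA of the pore was thus the least abundant of the 8 and that of its partner EMRE the most abundant, with 31.9 and 32.6 *Smdt1* transcripts per *Mcu* transcript in wild-type hearts and 24.2 and 31.2 in heterozygous hearts (here and below, replicate 1 is given before replicate 2, and values joined by "compared with" give the wild-type hearts first).

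**Figure D1:**
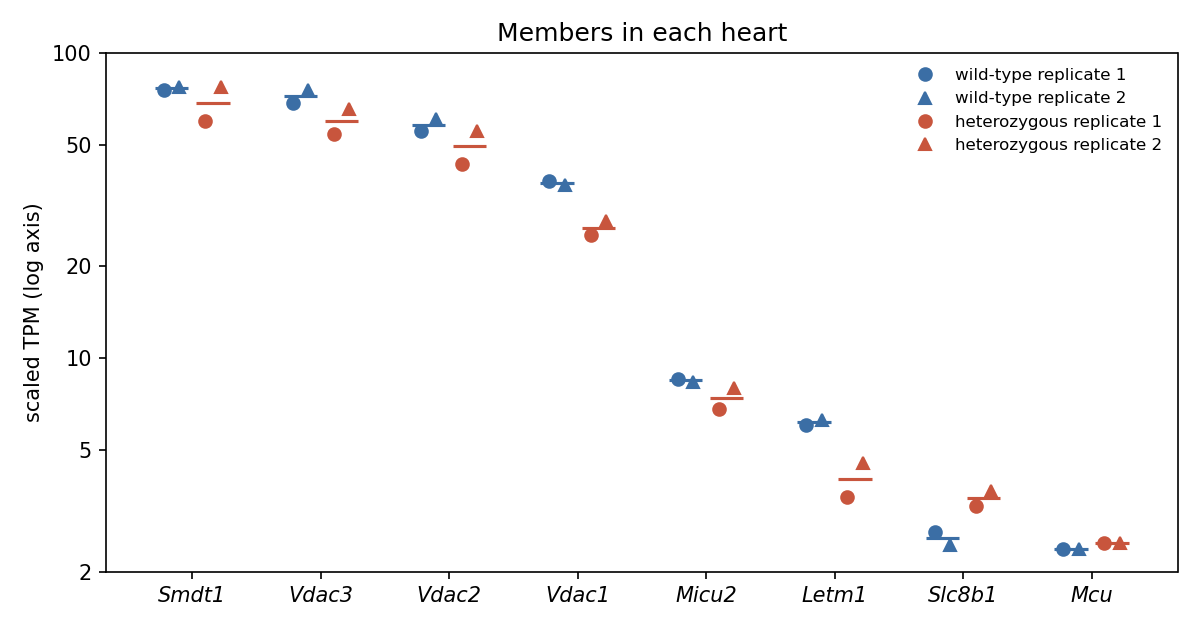
Scaled TPM of the 8 members on a log axis, with blue points for the wild-type hearts, red points for the heterozygous hearts and short lines at the genotype means (n = 2 each). *Letm1* and *Vdac1* show the widest gaps between genotypes, *Slc8b1* has both heterozygous hearts above both wild-type hearts, and *Mcu* lies between 2.38 and 2.48 in all hearts.

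The question put to these hearts was which transcripts differ in the adult heterozygous heart. Of the 8 members, 6 had lower mean values in heterozygous hearts after scaling and 2 had higher ones, with a median log2 fold change of -0.21 compared with -0.005 over the 10036 genes tested. None of the 8 passed the test (limma, with bounds of 0.05 on the adjusted p and 1.5 on the fold change), which called 0.0199% of all genes lower and 0% higher. At an unadjusted p under 0.05, 2 of the 8 were lower, compared with 5.71% of all genes, and 1 was higher, compared with 6.49%. Both heterozygous hearts stood under both wild-type hearts for 5 of the 8 members (23.3% of all genes) and over them for 2 (23.7%).

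For the uniporter complex, the 3 subunit genes showed small differences that did not pass. The wild-type hearts had 2.59 and 3.00 TPM of *Mcu* and the heterozygous hearts 2.03 and 2.24. After scaling these were 2.38 and 2.38 compared with 2.48 and 2.48, so that the genotypes did not overlap but differed by a log2 fold change of only 0.04 (95% interval -0.26 to 0.35, adjusted p = 0.908 from limma). *Mcu* followed the scaling factors closely in every heart, and its direction turned with the scaling: the log2 fold change was -0.27 with TPM as deposited. *Micu2*, the gatekeeper gene, was at 8.56 and 8.39 scaled TPM in the wild-type hearts and at 6.85 and 8.02 in the others. Heterozygous heart 1 was the low one (limma, log2 fold change -0.17, SE 0.15, adjusted p = 0.648). *Smdt1*, the EMRE gene, was at 75.9 and 77.6 scaled TPM compared with 60.1 and 77.4. The values overlapped, since heterozygous heart 2 stood within the wild-type range (limma, log2 fold change -0.17, SE 0.19, adjusted p = 0.731). Without heterozygous heart 1 the fold change was -0.069 for *Micu2* and 0.016 for *Smdt1*. The lower value of *Smdt1* thus rests on that heart and that of *Micu2* mostly does. Heterozygous heart 1 also had the lowest cardiomyocyte marker sum (20048 scaled TPM). Its share of TPM outside mitochondrially encoded genes and their copies was the lowest too (14.2%). The part of these differences was not tested.

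The genes of the other inner-membrane transporters had fold changes of opposite sign. *Letm1* was at 6.61 and 7.93 TPM compared with 2.87 and 4.12 TPM in the heterozygous hearts, or 6.08 and 6.29 compared with 3.51 and 4.56 after scaling. Both heterozygous hearts were well under both wild-type hearts, at means of 6.19 ± 0.154 and 4.04 ± 0.743 scaled TPM (SD, n = 2), so that the heterozygous mean was 65.2% of the wild-type mean. In limma the log2 fold change was -0.52 (SE 0.16, 95% interval -0.89 to -0.15, unadjusted p = 0.0136), and with an adjusted p of 0.341 it did not pass. The unadjusted p was under 0.05 in every alternative that kept all hearts, but not when wild-type heart 1 or wild-type heart 2 was left out. These alternatives rest on the same hearts and are not separate tests. Of all 10036 genes, 1224 had such a p after the main scaling and 3390 with TPM as deposited. The log2 fold change of *Letm1* was -0.54 without wild-type heart 1 and -0.49 without wild-type heart 2. *Slc8b1*, the NCLX gene, was at 2.93 and 3.09 TPM compared with 2.68 and 3.33 TPM, which overlapped. After scaling the wild-type hearts had 2.69 and 2.45 and the heterozygous hearts 3.28 and 3.69, and both heterozygous hearts were the higher ones. In limma the log2 fold change was 0.33 (SE 0.14, unadjusted p = 0.0494, adjusted p = 0.408), and the unadjusted p stayed under 0.05 in 4 of 15 alternatives. It was -0.0063 with TPM as deposited, so the higher value of this exchanger gene was relative to most other genes.

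The 3 VDAC genes all had lower mean values in heterozygous hearts, with the widest gap for *Vdac1*, and none passed the test. *Vdac1*, the best studied of the outer-membrane pores, was at 41.4 and 46.7 TPM compared with 20.7 and 25.5 TPM in the heterozygous hearts. After scaling it had 38.0 and 37.1 compared with 25.4 and 28.3. The replicates of each genotype lay close together, at 37.5 ± 0.685 and 26.8 ± 2.05 scaled TPM (SD, n = 2), and the heterozygous mean was 71.4% of the wild-type mean. In limma the log2 fold change was -0.47 (SE 0.16, 95% interval -0.86 to -0.08, unadjusted p = 0.0241, adjusted p = 0.360). The unadjusted p was under 0.05 in every alternative that kept all hearts, but not when wild-type heart 1 or wild-type heart 2 was left out. As for *Letm1*, these are not separate tests, and 3390 of 10036 genes had such a p with TPM as deposited (1224 after the main scaling). The log2 fold change of *Vdac1* was -0.46 without wild-type heart 1 and -0.49 without wild-type heart 2. *Vdac2*, a pore that also binds the apoptosis effector BAK, was at 55.7 and 60.8 scaled TPM compared with 43.4 and 55.6. Heterozygous heart 2 missed the lower wild-type heart by 0.0655 scaled TPM, and the genotypes overlapped once the pseudogene copy was added (limma, log2 fold change -0.24, SE 0.19, adjusted p = 0.617). *Vdac3*, the third isoform gene, was at 68.5 and 75.7 scaled TPM compared with 54.4 and 65.5, without overlap (limma, log2 fold change -0.27, SE 0.19, adjusted p = 0.564). Without heterozygous heart 1 the fold changes were -0.40 for *Vdac1*, -0.061 for *Vdac2* and -0.13 for *Vdac3*. The lower value of *Vdac2* thus rests mostly on that heart and that of *Vdac3* in part.

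**Figure D2:**
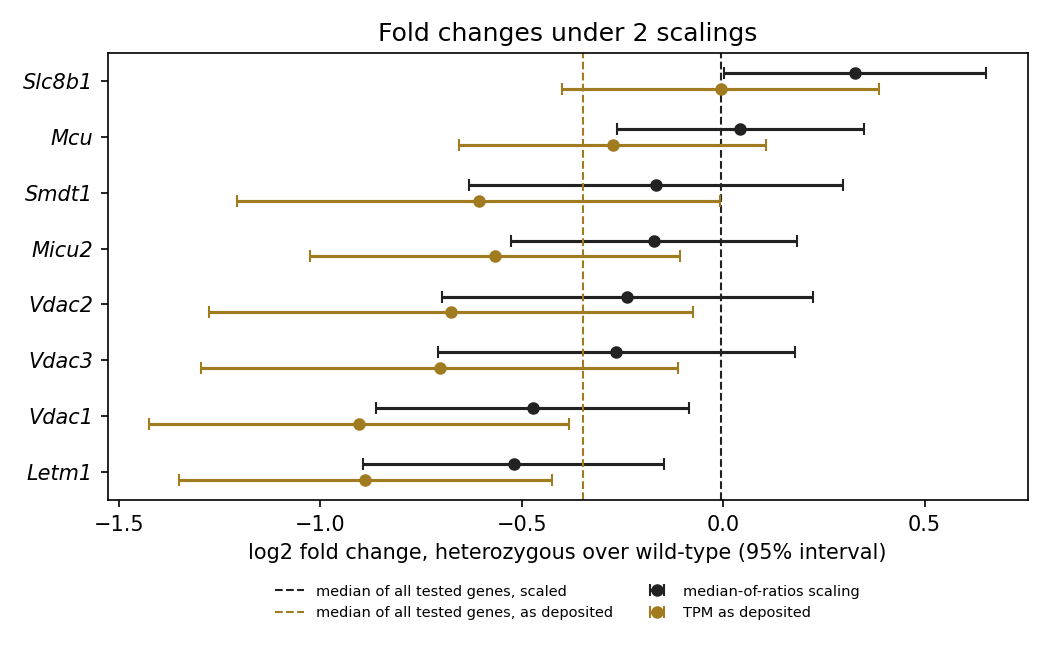
Log2 fold changes of the members, heterozygous over wild-type, with 95% intervals from limma, after median-of-ratios scaling (black) and with TPM as deposited (brown). The dashed lines mark the medians of all tested genes, -0.005 and -0.35, and every member keeps its side of that median under both scalings. These differ by a common factor per library, so the place of a member relative to the median is nearly fixed.

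Since the scaling sets the zero line, each member was also read against the median of all tested genes. That median was -0.35 with TPM as deposited, -0.31 with mitochondrially encoded genes removed and 0.05 with their nuclear copies removed as well. Relative to it, *Letm1* stood between -0.60 and -0.52 and *Vdac1* between -0.56 and -0.47 under the 5 scalings computed. *Vdac3* stood between -0.36 and -0.24, *Vdac2* between -0.33 and -0.21, *Smdt1* between -0.26 and -0.14 and *Micu2* between -0.22 and -0.17. *Mcu* stood between 0.04 and 0.07 and *Slc8b1* between 0.33 and 0.42. No member changed its side of the median. This was nearly fixed in advance: except for quantile normalization, the scalings change each library by a common factor, which shifts all log2 fold changes nearly alike. With TPM as deposited, 7 of the 8 members were lower without overlap, where 67.8% of all genes were, and none passed the test (lowest adjusted p = 0.0891 from limma).

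Ratios within a heart do not depend on the scaling between hearts. Relative to *Mcu*, *Micu2* had 3.59 and 3.52 transcripts per transcript in wild-type and 2.76 and 3.23 in heterozygous hearts. *Letm1* had 2.55 and 2.64 compared with 1.41 and 1.84, and *Slc8b1* had 1.13 and 1.03 compared with 1.32 and 1.49. The 4 ratios, including that of *Smdt1*, were each separated by genotype, at log2 differences of -0.25 for *Micu2*, -0.23 for *Smdt1*, -0.69 for *Letm1* and 0.38 for *Slc8b1*. They share *Mcu*, at between 2.03 and 3.00 TPM, as denominator and are not separate observations. The scaled values of *Smdt1* itself overlapped between genotypes. Without heterozygous heart 1 the difference was -0.14 for *Micu2* and -0.046 for *Smdt1*. Of all genes, 29.2% were lower and 18.6% higher without overlap when divided by *Mcu*. With 2 mice in each group an exact permutation test (two-sided) cannot go below p = 0.333, which each ratio reached, also after adjustment over the 4 ratios. The widest contrast between members was that of *Letm1* and *Slc8b1*, a pair chosen after the values were seen. Wild-type hearts had 2.26 and 2.57 *Letm1* transcripts per *Slc8b1* transcript, whereas heterozygous hearts had 1.07 and 1.24.

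**Figure D3:**
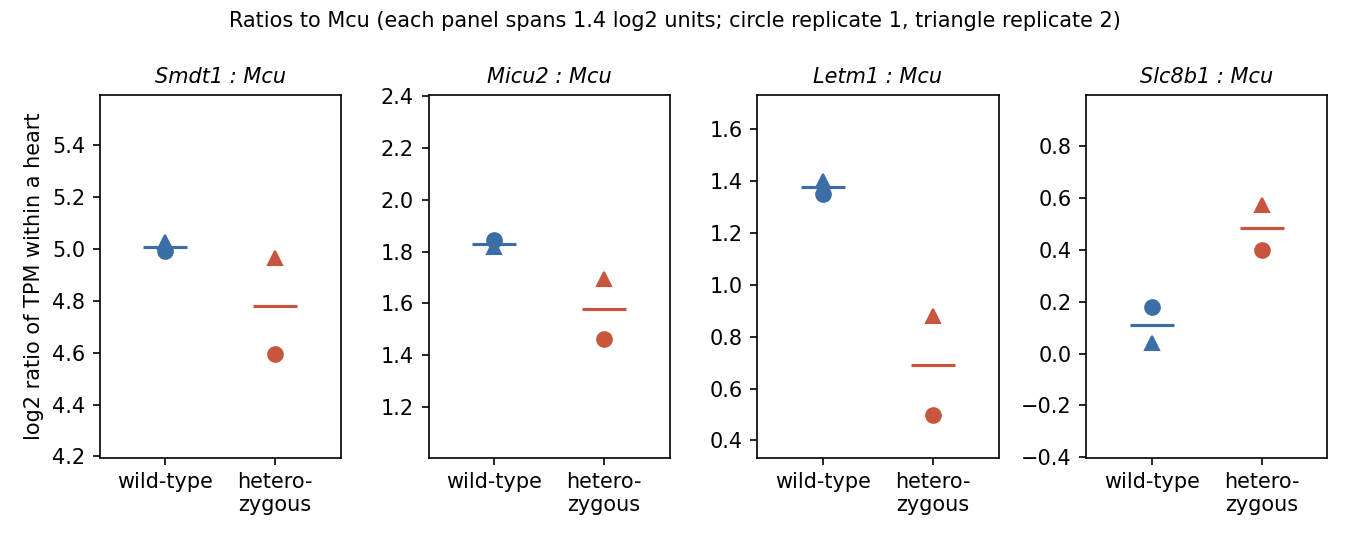
Log2 ratio of the TPM of 4 members to that of *Mcu* within each heart, with short lines at the genotype means (n = 2 each) and panels of equal span. The heterozygous ratios lie under the wild-type ratios for *Smdt1*, *Micu2* and *Letm1* and over them for *Slc8b1*.

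Together the 3 VDAC genes had 162 and 173 scaled TPM in wild-type and 123 and 149 in heterozygous hearts, and 68.1 and 72.9 transcripts per *Mcu* transcript compared with 49.6 and 60.2. The composition of this pool was much alike in all hearts. *Vdac3* took the largest share, at 42.2% and 43.6% in wild-type and 44.2% and 43.9% in heterozygous hearts, and *Vdac2* took 34.3% and 35.0% compared with 35.2% and 37.2%. The share of *Vdac1* was 23.4% and 21.4% in wild-type and 20.6% and 18.9% in heterozygous hearts, a difference of -2.65 percentage points. This difference was -1.61 without wild-type heart 1, and that of *Vdac2*, 1.55, was 2.54 without heterozygous heart 1 and 0.566 without heterozygous heart 2. That of *Vdac3*, 1.10, was 1.79 without wild-type heart 2 and 0.416 without wild-type heart 1. The lower wild-type share of *Vdac1* lay close to the higher heterozygous one, and the exact permutation test (two-sided) gave p = 0.333 for each share, the smallest it can give. Since the shares of a heart add up to the whole, they are not separate results.

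**Figure D4:**
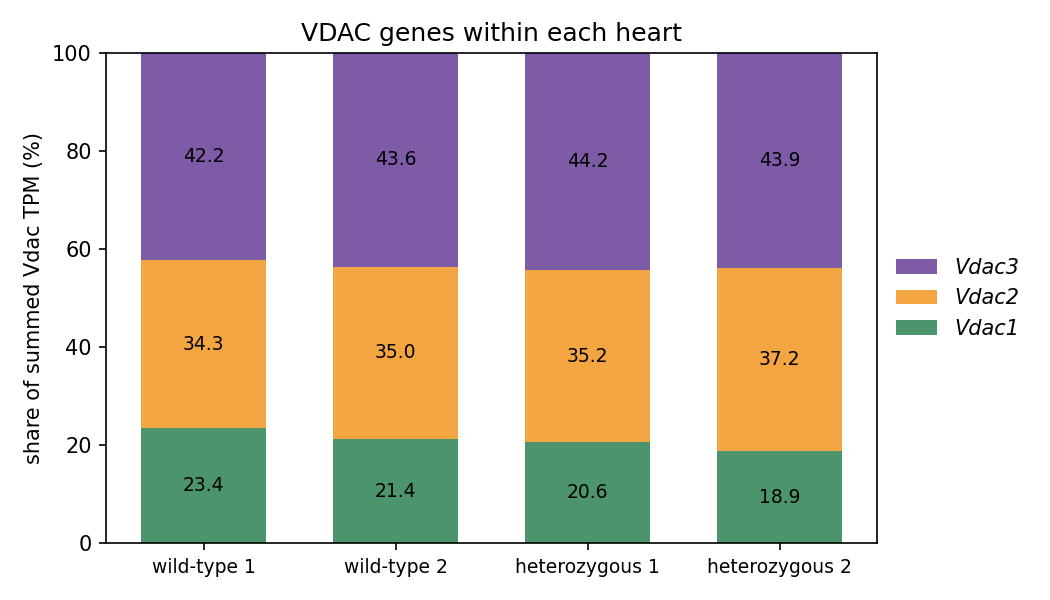
Share of each VDAC gene in the summed TPM of *Vdac1*, *Vdac2* and *Vdac3* in each heart, in percent. *Vdac3* is the largest part of every bar and *Vdac1* the smallest, between 18.9% and 23.4%.

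Of the pathway around the members, 50 further genes in 5 lists were tested, and none passed at an adjusted p under 0.05 from limma. At an unadjusted p under 0.05, 4 of the 50 were lower and 0 higher, compared with 5.71% and 6.49% of all genes. Both heterozygous hearts stood under both wild-type hearts for 22 of the 50 and over them for 5, compared with 23.3% and 23.7% of all genes. Among the 10 tested regulators of the uniporter, no gene had an unadjusted p under 0.05, 4 were lower and 3 higher without overlap, and the median log2 fold change was -0.03. *Micu3*, another gatekeeper gene, had 2.76 and 2.64 scaled TPM compared with 3.25 and 3.11, so both heterozygous hearts stood higher (limma, log2 fold change 0.18, adjusted p = 0.577). *Mcub*, which encodes a pore subunit that lowers conductance, had between 0.37 and 0.71 TPM and was under the filter. The lowest of this list was *Afg3l2*, a subunit gene of the protease that removes unassembled EMRE (9.79 and 10.6 compared with 8.13 and 7.99, log2 fold change -0.31, adjusted p = 0.431 from limma).

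Among the 6 tested genes of cation exchange, 1 was lower and 1 higher without overlap, compared with 23.3% and 23.7% of all genes. *Ghitm*, which encodes the inner-membrane protein TMBIM5, was the only one of the 6 with an unadjusted p under 0.05. The wild-type hearts had 19.8 and 21.8 scaled TPM and the heterozygous hearts 12.3 and 13.7, so both of the latter stood lower (limma, log2 fold change -0.64, SE 0.16, adjusted p = 0.319). *Letmd1*, a relative of *Letm1* by name, had 3.33 and 3.34 compared with 4.98 and 3.72 (log2 fold change 0.29, adjusted p = 0.478 from limma). The 11 tested genes of contact sites with the endoplasmic reticulum, of which 4 were lower and 1 higher without overlap, had a median of -0.05, between *Mfn1* at -0.36 (mitofusin, with 92.5 and 55.7 scaled TPM in the 2 wild-type hearts alone) and *Rmdn3* at 0.11. The 13 tested partners of VDAC, of which 6 were lower and 0 higher without overlap, had a median of -0.14, with the mitochondrial creatine kinase gene *Ckmt2* lowest at -0.47 (scaled TPM of 459 and 546 compared with 344 and 381, adjusted p = 0.412 from limma) and *Bax* highest at 0.19.

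The 10 genes of calcium-responsive matrix enzymes and carriers all had negative log2 fold changes, with a median of -0.34, and 7 of the 10 were lower without overlap, compared with 23.3% of all genes. An unadjusted p under 0.05 was found for 3 of the 10, compared with 5.71% of all genes on the lower side. The lowest was *Idh3b*, a subunit gene of NAD-dependent isocitrate dehydrogenase, at 49.4 and 63.6 scaled TPM compared with 31.0 and 36.8 (limma, log2 fold change -0.71, SE 0.20, adjusted p = 0.335). The highest was *Slc25a13*, an aspartate-glutamate carrier gene, at -0.05. The cardiomyocyte markers also had a negative median, -0.28, as given above, and its part in this list and in the members was not tested. The difference between lists was not tested either.

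**Figure D5:**
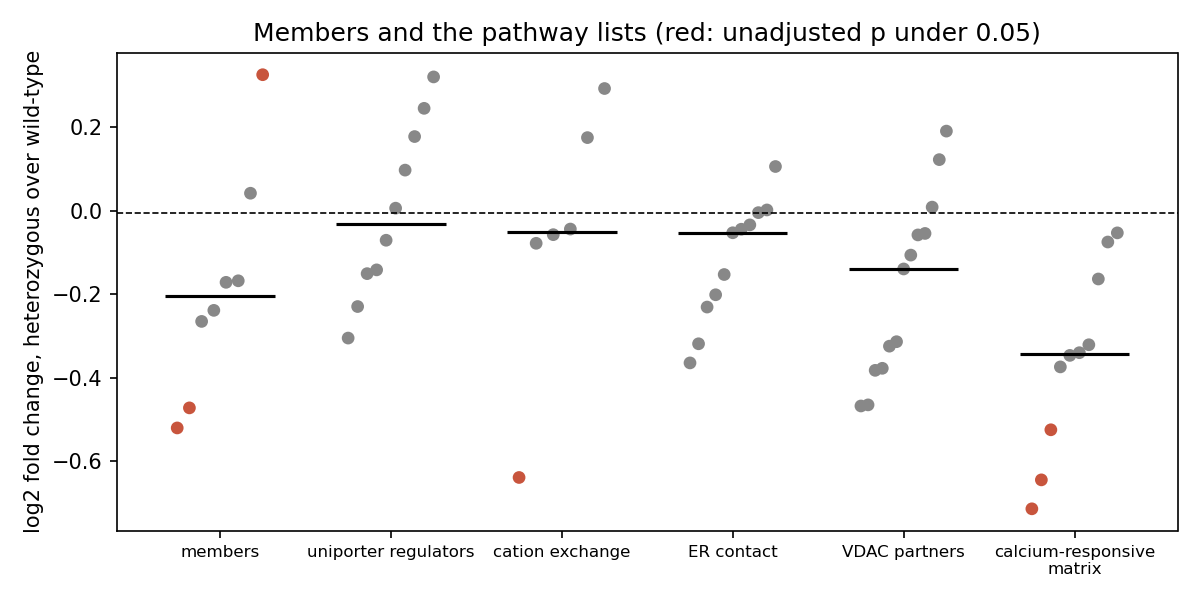
Log2 fold changes, heterozygous over wild-type, of the 8 members and of the 50 tested genes in 5 pathway lists, with a bar at each median and a dashed line at the median of all tested genes. Red points have an unadjusted p under 0.05, and the list of calcium-responsive matrix genes has the lowest median, -0.34.

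The genes whose profile over the 4 hearts was nearest to that of a member were found by the Euclidean distance of log2 values centred on each gene, among genes with a mean of at least 10 TPM. For *Mcu* these were *Sh3bgr* (distance 0.009), *Hdac5* (0.015) and *Cyhr1* (0.037) among 2575 genes. For *Vdac1* they were *Mtfp1* (0.040), *Mat2b* (0.049) and *B230118H07Rik* (0.061) among 2574 genes, with log2 fold changes between -0.47 and -0.43. Among the members, the closest profiles were those of *Vdac2* and *Vdac3* (0.067) and of *Smdt1* and *Vdac2* (0.097), *Letm1* was nearest to *Vdac1* (0.131), and the farthest apart were *Letm1* and *Slc8b1* (0.861). With 4 hearts such distances describe these libraries and carry no test.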

How the data were processed

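RNA-seq of whole hearts was available as 1 table of TPM values for 4 libraries. The deposited TPM, rounded to 2 decimals, came from RSEM (1.2.28) after adapter and quality trimming (Trim Galore 0.6.10) and alignment with STAR (2.7.4a) against the mm10 genome, as the authors' methods state. The annotation release is not given in the sources used here. The methods describe library preparation for E18.5 hearts, and the labels describe poly(A) capture for these hearts. Groups follow the genotype in the sample titles. Nothing gives a batch. The p-values from limma rest on the spread between these mice, with each gene's variance drawn towards that of genes of similar level.

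TPM were divided by median-of-ratios factors (1.09, 1.26, 0.818 and 0.903 for wild-type 1 and 2 and heterozygous 1 and 2) computed over genes above 0 in every library with a mean of at least 1 TPM. A pseudocount of 1 was added before log2, so fold changes understate those of low genes. The 10036 genes with a mean of at least 1 TPM, which include all 8 members, were fitted with limma (3.58.1, R 4.3.3; eBayes with trend, two-sided, Benjamini-Hochberg over all tested genes). No count model was run, because TPM are not counts. The limma code was tested on simulated data with larger changes than those of the members and less noise than in these hearts. That test checks the code and does not give the power for these data. Near-identical copies were found with BLAST+ (2.17.0; at least 95% identity over at least 80% of the shorter transcript), coding sequences were aligned with biopython (1.88), and 55141 of 55401 gene identifiers matched GENCODE M21.

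The members, pathway lists, markers and tests were chosen with earlier results of these data known. Named genes are all members, *Ctcf*, the lowest and highest gene of each list, *Micu3*, *Mcub*, and the 3 genes nearest in profile to *Mcu* and to *Vdac1*. A gene that this rule also names is not reported here. The alternatives covered scaling, pseudocount, filter, variance model, replicate block, thresholds, summed copies and each library left out.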

Additional observations from a re-analysis of the deposited data

How the results depend on the processing

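The log2 fold changes of *Letm1*, *Vdac1*, *Vdac2*, *Vdac3* and *Micu2* were negative in all 16 alternatives computed, and no member passed the test in any of them. Across alternatives *Letm1* ran from -0.90 to -0.31, with adjusted p values from limma between 0.0693 and 0.999, and *Vdac1* from -0.90 to -0.40. *Mcu* turned to -0.27 for TPM as deposited and to -0.24 after removal of mt- genes, *Slc8b1* turned to -0.0063 with TPM as deposited, and *Smdt1* was between -0.61 (TPM as deposited) and 0.016 (without heterozygous replicate 1), and -0.35 without heterozygous replicate 2. At a mean of at least 5 TPM, *Mcu* and *Slc8b1* were not tested. Changes of filter, variance model or replicate block leave a fold change as it is, so they could not turn a sign. For *Letm1*, *Vdac1*, *Vdac2*, *Vdac3* and *Micu2* both heterozygous hearts stood under both wild-type hearts. Leaving a library out could therefore hardly turn their sign either.

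The mean log2 difference over the members was -0.18, compared with -0.58 for TPM as deposited, -0.50 after removal of mt- genes and -0.31 at a mean of at least 5 TPM. It was -0.29 without heterozygous replicate 2 and -0.071 without heterozygous replicate 1, the ends of the range as each library was left out. Members higher without overlap numbered 2, compared with 0 for TPM as deposited, 1 after removal of mt- genes and 0 at a mean of at least 5 TPM. Over all genes this number was 2374, compared with 233 for TPM as deposited and 442 after removal of mt- genes.

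Over all genes, limma called 2 lower and 0 higher, while 1224 had an unadjusted p under 0.05. It called 11 lower and 2 higher with TPM as deposited, 12 and 2 after removal of mt- genes, and 4 and 2 with their nuclear copies removed too. It called 4 lower at a pseudocount of 0.1, 0 lower without a filter (2134 at an unadjusted p under 0.05) and 2 higher with robust eBayes. With a library left out it called 13 lower and 1 higher (without wild-type replicate 1), 21 and 4 (wild-type 2), 4 and 12 (heterozygous 1) and 4 and 6 (heterozygous 2), where the lone heart of a genotype is assumed to vary like the others. With the replicate number as a block, 7 were lower and 3 higher. Same-numbered hearts are different mice, and the correlation of their residuals within a genotype was 0.10, so this fit was not used as a paired result. The ratios and shares kept their sign without each library, which was fixed in advance because the genotypes overlapped in none of them. Summing copies could not alter the ratios, since only *Vdac2* and *Vdac3* have copies, and the shares kept their sign. Without a library several ratios and shares moved in size, as given beside them. The cause of these shifts was not tested.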
